A study of Mus musculus with 10 samples.

Results

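Spermatogonia are the mitotic germ cells at the base of the seminiferous tubule, and 10 genes that mark or control them were followed in testis of mice without a functional Crem gene. They were taken as a list of genes, with earlier results of these data known. Of them 5 are known from undifferentiated spermatogonia (Zbtb16, Gfra1, Id4, Lin28a and Sall4). The other 5 are known from differentiating spermatogonia and the entry into meiosis (Kit, Stra8, Sohlh1, Sohlh2 and Dmrtb1). Each of the 10 was measured by 1 array feature with that gene symbol alone, out of 19661 genes with a feature. All 10 were tested, since no filter on low values was applied.

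RNA was prepared from the testis of 5 Crem-/- (KO) and 5 wild-type (WT) male mice and hybridised to Affymetrix mouse gene arrays, with 1 mouse per array. Per the labels all animals were of the strain 129Pas x C57Bl/J, 8 weeks old, untreated, and killed at 0 h when the light came on. The KO allele carries an inserted neomycin resistance gene in every cell of the body, and the study states that sperm development in these mice stops at round spermatids. Levels are log2 values of the robust multi-array average (RMA), and a change is KO minus WT on that scale with the standard error (SE) of a limma fit. A gene counted as called where its p, adjusted by the method of Benjamini and Hochberg across the 25689 features, was under 0.05.

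In the adult testis a small pool of undifferentiated spermatogonia renews itself and supplies cells that commit to differentiation. Glial cell line-derived neurotrophic factor (GDNF) from somatic cells of the tubule acts through the receptor pair GFRA1 and RET to keep the undifferentiated state. Retinoic acid starts differentiation, after which the cells depend on the receptor KIT and its ligand. STRA8, which retinoic acid induces, is required for their entry into meiosis. Crem gives rise to repressor forms in germ cells before meiosis and to an activator form in spermatids, and the KO allele affects all of them.

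Arrays of the same genotype were alike, with Pearson's r across features of 0.992 to 0.995, against 0.936 to 0.952 between genotypes. Crem itself fell by 1.71 ± 0.07 (SE; limma adjusted p = 3.0e-10). Of 11 spermatid genes 10 fell, with a list median of −4.86, among them Prm1 (−5.52 ± 0.48, SE), Akap4 (−5.49 ± 0.43) and Tnp2 (−5.46 ± 0.59), and their mean level was 12.32 to 12.46 in WT arrays and 7.55 to 9.17 in KO arrays, highest in KO replicates 2 and 3. The labels also give 4 batches, of which batch 2 held 3 WT arrays and 1 KO array, batch 4 held 1 WT array and 3 KO arrays, and the arrays of batch 1 (KO replicate 2) and batch 3 (WT replicate 4) stood alone. In RNA of a whole organ, fewer cells of a type and less RNA per cell cannot be told apart.

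The spermatogonial genes changed by small amounts and in both directions. Of the 10 members 4 rose (Zbtb16, Id4, Lin28a and Kit), 2 fell (Gfra1 and Sohlh2) and 4 did not pass the test (Sall4, Stra8, Sohlh1 and Dmrtb1). Over all genes 44.3% were called changed, 31.1% higher and 13.2% lower, so 6 of 10 called is not far from the background of these arrays. The largest change of a member was 0.47 in log2, and 15.3% of all genes changed by more than that. The WT and KO arrays did not overlap in 4 members (Zbtb16, Gfra1, Id4 and Lin28a), against 32.7% of all genes.

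**Figure D1:**
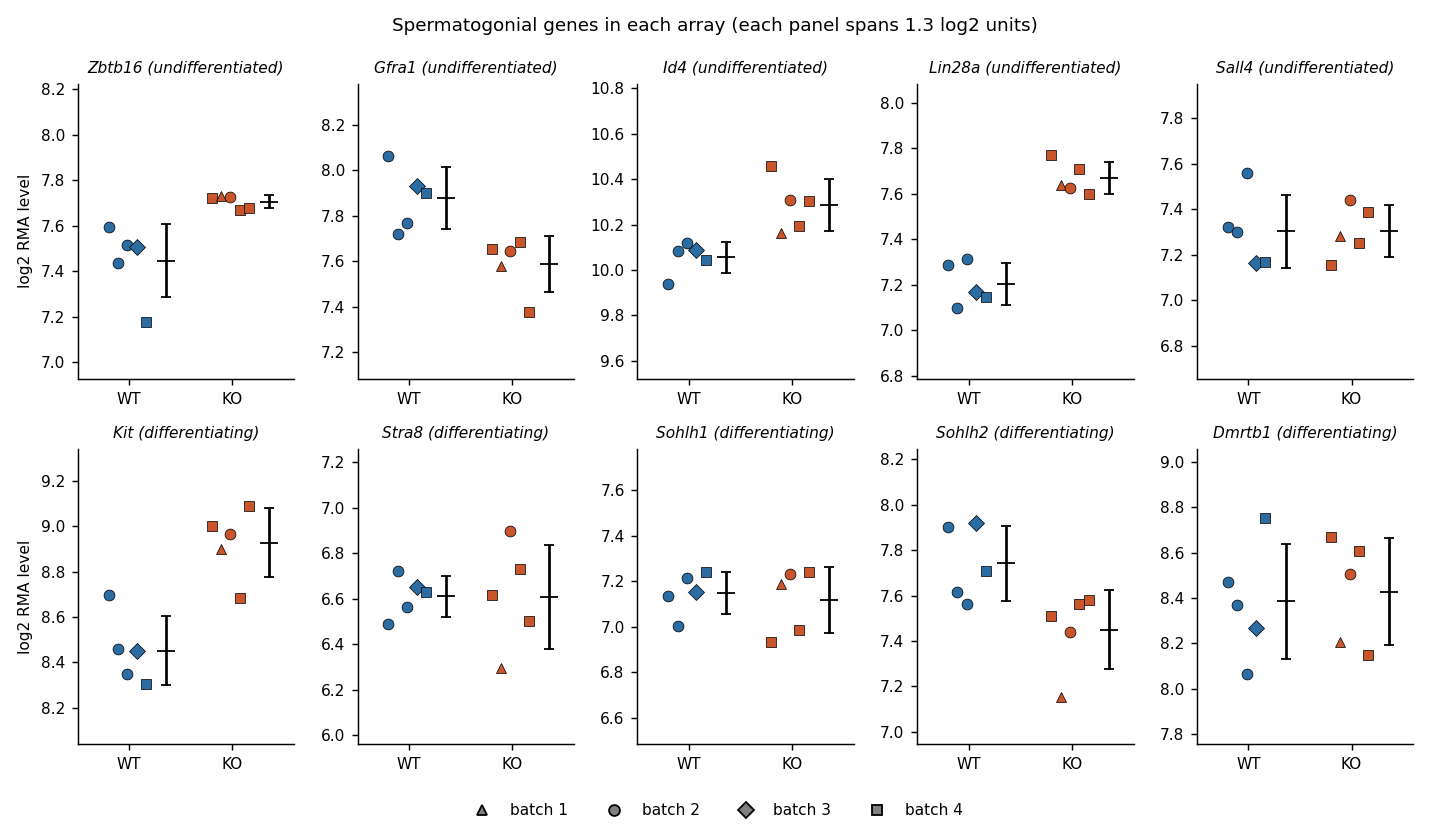
Log2 RMA level (vertical axis, the same span in each panel) of the 10 spermatogonial genes, shown for 5 WT arrays (blue) and 5 KO arrays (orange) with a symbol for each of the 4 batches and the mean with SD (n = 5) beside each group. KO arrays lie above all WT arrays for Zbtb16, Id4 and Lin28a and below them for Gfra1. The groups overlap over most of their range for Sall4, Sohlh1 and Dmrtb1, and the KO arrays of Stra8 spread on both sides of the WT arrays.

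The undifferentiated genes were 3 higher and 1 lower, with a median change of 0.23 beside a median of 0.07 over all genes. Lin28a, an RNA-binding protein that blocks the maturation of let-7 microRNAs, had the clearest rise. Its level was 7.29, 7.10, 7.31, 7.17 and 7.14 in WT replicates 1 to 5 and 7.77, 7.64, 7.62, 7.71 and 7.60 in KO replicates 1 to 5. Every KO array lay above every WT array, and the groups lay well apart. The level rose from 7.20 ± 0.09 to 7.67 ± 0.07 (SD, n = 5 each), by 0.47 ± 0.06 (SE; limma adjusted p = 4.6e-05), which is 1.38-fold on the linear scale. The change was 0.39 in batch 2 (limma adjusted p = 0.0816) and 0.55 in batch 4 (limma adjusted p = 0.0259).

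Zbtb16 encodes PLZF, a zinc finger repressor that spermatogonial stem cells need to persist. Its level was 7.59, 7.44, 7.52, 7.50 and 7.18 in WT and 7.72, 7.73, 7.73, 7.67 and 7.68 in KO. The KO arrays lay close together, just above the highest WT array, while WT replicate 5 was lower than the other WT arrays. Zbtb16 rose by 0.26 ± 0.07 (SE; limma adjusted p = 0.0122), from 7.45 ± 0.16 to 7.71 ± 0.03 (SD, n = 5 each). The change was 0.21 in batch 2 (limma adjusted p = 0.249) and 0.51 in batch 4, where WT replicate 5 was the single WT array (limma adjusted p = 0.0232). Without KO replicates 2 and 3 it was 0.25 (limma adjusted p = 0.0510).

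Id4 encodes an inhibitor of basic helix-loop-helix factors and marks cells with stem cell activity. Its level was 9.94, 10.09, 10.12, 10.09 and 10.05 in WT and 10.46, 10.16, 10.31, 10.20 and 10.30 in KO. The groups lay apart by a narrow gap, between WT replicate 3 and KO replicate 2. The rise was 0.23 ± 0.07 (SE; limma adjusted p = 0.0133), from 10.06 ± 0.07 to 10.29 ± 0.12 (SD, n = 5 each). The changes within batch 2 and batch 4 were 0.26 and 0.27, neither of them called (limma adjusted p = 0.182 and 0.229). Its relatives Id1 and Id2 were not called (0.05 ± 0.09 and 0.10 ± 0.07, SE), and Id3 rose by 0.37 ± 0.10.

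Gfra1, the GDNF-binding part of the receptor, was the undifferentiated gene that fell. Its level was 8.06, 7.72, 7.77, 7.93 and 7.90 in WT and 7.65, 7.58, 7.65, 7.68 and 7.38 in KO. All KO arrays lay below all WT arrays, KO replicate 4 by only a few hundredths. The fall from 7.88 ± 0.14 to 7.59 ± 0.12 (SD, n = 5 each) was 0.29 on the log2 scale (a change of −0.29 ± 0.08, SE; limma adjusted p = 0.0103). The call was lost with batch as a block (−0.27, limma adjusted p = 0.100), and the changes were −0.21 in batch 2 and −0.33 in batch 4. Its partners were not called. Ret, the signalling part of the receptor, was at 0.01 ± 0.05 and the ligand gene Gdnf at −0.02 ± 0.06 (SE; limma adjusted p = 0.944 and 0.847). In WT the mean levels of Ret and Gdnf were 6.59 and 6.36, below the array medians of 7.11 to 7.15. Whether their signal exceeds background is unknown without detection calls. Gfra2, a related co-receptor gene, fell by 0.85 ± 0.08.

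Sall4, a zinc finger factor of undifferentiated germ cells, was at 7.30 ± 0.16 in WT and 7.30 ± 0.11 in KO (SD, n = 5 each). The change was 0.001 ± 0.083 (SE), with a 95% interval of −0.18 to 0.18 and a limma adjusted p of 0.995. The KO arrays at 7.16 to 7.44 lay within or just below the range of the WT arrays, at 7.17 to 7.56.

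Lin28a and Gfra1 therefore moved apart, and this does not depend on how an array is scaled. Within an array, the log2 level of Lin28a minus that of Gfra1 was −0.78 to −0.46 in WT and −0.02 to 0.22 in KO, a shift of 0.76 in its mean. The pair was chosen after the values were seen, so the shift is given without a test.

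The differentiating genes were 1 higher, 1 lower and 3 not called, with a median change of −0.004. Kit, the receptor tyrosine kinase that marks spermatogonia once they commit to differentiate, had the largest change of all 10 members. Its level was 8.70, 8.46, 8.35, 8.45 and 8.31 in WT and 9.00, 8.90, 8.97, 8.68 and 9.09 in KO. Of the KO arrays 4 lay above the highest WT array, and KO replicate 4 was just below WT replicate 1. Kit rose from 8.45 ± 0.15 to 8.93 ± 0.15 (SD, n = 5 each), by 0.47 ± 0.09 (SE; limma adjusted p = 7.8e-04), a 1.39-fold rise. The change was 0.46 in batch 2 and 0.62 in batch 4 (limma adjusted p = 0.0862 and 0.0534).

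Kitl, the gene of its ligand, rose as well, by 0.36 ± 0.08 (SE; limma adjusted p = 0.0041), from 7.39 ± 0.17 to 7.75 ± 0.11 (SD, n = 5 each). Within an array, Kit minus Kitl was 0.72 to 1.47 in WT and 0.81 to 1.37 in KO, so their ratio overlapped. Kit is known outside spermatogonia too, in Leydig cells and mast cells and as a shorter transcript in spermatids, and the feature averages probes along the gene. Of 7 Leydig cell genes 6 rose and none fell, against 31.1% higher and 13.2% lower over all genes. The mean level of the Leydig cell list was 9.58 to 9.74 in WT and 9.92 to 10.53 in KO. Of 8 mast cell genes 1 rose and 2 fell, with list means of 4.85 to 4.98 in WT and 4.83 to 4.99 in KO. These means lay well below the array medians of 7.11 to 7.15, and signal over background is unknown without detection calls. The part of Leydig cells, mast cells and spermatids in the Kit signal was not tested.

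Sohlh2 and Sohlh1 encode a pair of germ cell basic helix-loop-helix factors needed for spermatogonia to differentiate. Sohlh2 was at 7.90, 7.61, 7.56, 7.92 and 7.71 in WT and at 7.51, 7.15, 7.44, 7.56 and 7.58 in KO. The groups touched, KO replicate 2 was the lowest of all arrays, and 3 KO arrays lay below the lowest WT array. The level fell from 7.74 ± 0.16 to 7.45 ± 0.17 (SD, n = 5 each), a change of −0.29 ± 0.10 (SE; limma adjusted p = 0.0262). This call was lost without WT replicate 1 (limma adjusted p = 0.0684), without WT replicate 4 (0.0658), without KO replicate 2 (0.0520) and with batch as a block (−0.20, limma adjusted p = 0.128). Without KO replicates 2 and 3 the change was −0.19, and in batch 4 it was −0.16. Sohlh1 was at 7.15 ± 0.09 in WT and 7.12 ± 0.15 in KO (SD, n = 5 each), with a change of −0.03 and a 95% interval of −0.20 to 0.13.

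Kit and Sohlh2 likewise moved apart, and Kit minus Sohlh2 was 0.53 to 0.85 in WT and 1.12 to 1.74 in KO. This pair, too, was chosen after the values were seen and was not tested.

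Stra8, the retinoic acid-induced gene required for entry into meiosis, was at 6.49, 6.72, 6.56, 6.65 and 6.63 in WT and at 6.61, 6.29, 6.90, 6.73 and 6.50 in KO. The KO arrays spread on both sides of the WT arrays, from KO replicate 2 at the bottom to KO replicate 3 at the top, with an SD of 0.23 against 0.09 in WT (n = 5 each). The change was −0.004 ± 0.098 (SE; limma adjusted p = 0.982), with a 95% interval of −0.21 to 0.21. Dmrtb1, a DM-domain factor that coordinates the step from spermatogonia to spermatocytes, was the most variable member in WT, at 8.07 to 8.75, and lay at 8.15 to 8.67 in KO. Its change was 0.04 ± 0.13 (SE), with a 95% interval of −0.24 to 0.32, and it was 0.20 in batch 2 and −0.28 in batch 4.

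**Figure D2:**
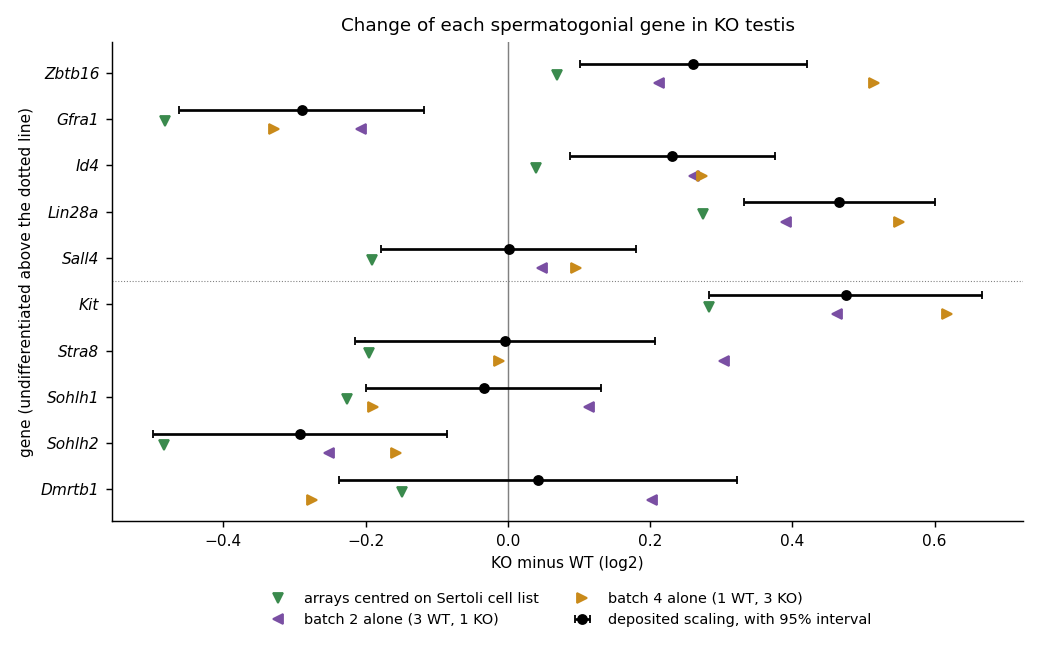
KO minus WT log2 change (horizontal axis) of each member, undifferentiated genes above the dotted line: black points with bars give the change and its 95% interval over all 10 arrays, and coloured marks the changes with arrays centred on the Sertoli cell list, in batch 2 and in batch 4. Lin28a and Kit lie right of 0 and Gfra1 and Sohlh2 left of 0 under each of them, whereas Zbtb16 and Id4 come close to 0 with the Sertoli cell centring.

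CREM acts through the cAMP response element, so the letters of this element were looked for around the starts of the member genes. RefSeq promoter windows of GRCm38.p6, 250 bases before to 50 after a start, were at hand for 8 of the 10 genes, those of Zbtb16 and Sall4 not among them. None of the 8 held the full element TGACGTCA on either strand, which 1.79% of 32851 windows held. The shorter core TGACG, which the full element contains, was in the windows of Sohlh2, Id4 and Stra8, and in 20.8% of all windows. The 250 bases before the start are printed for Sohlh2, which fell, and Id4, which rose, because these are the called members with this core, here in capitals and in both genes on the reverse strand.
Sohlh2 (GRCm38.p6, chr3:55181794-55182043, plus strand): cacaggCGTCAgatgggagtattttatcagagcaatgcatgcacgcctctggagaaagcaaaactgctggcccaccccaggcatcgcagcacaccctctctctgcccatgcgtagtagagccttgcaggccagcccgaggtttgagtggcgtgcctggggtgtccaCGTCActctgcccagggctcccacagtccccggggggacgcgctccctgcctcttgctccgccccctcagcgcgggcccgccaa
Id4 (GRCm38.p6, chr13:48260866-48261115, plus strand): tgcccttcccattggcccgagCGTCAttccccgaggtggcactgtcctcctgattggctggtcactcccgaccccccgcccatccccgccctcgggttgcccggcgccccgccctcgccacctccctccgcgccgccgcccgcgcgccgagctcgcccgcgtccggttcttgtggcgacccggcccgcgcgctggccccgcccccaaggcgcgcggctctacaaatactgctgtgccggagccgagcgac
The core of Stra8 lay after the start. Stra8 is printed for another motif, AGGTCA, a site at which retinoic acid receptors can bind, which it held at 2 places, in capitals.
Stra8 (GRCm38.p6, chr6:34920698-34920947, plus strand): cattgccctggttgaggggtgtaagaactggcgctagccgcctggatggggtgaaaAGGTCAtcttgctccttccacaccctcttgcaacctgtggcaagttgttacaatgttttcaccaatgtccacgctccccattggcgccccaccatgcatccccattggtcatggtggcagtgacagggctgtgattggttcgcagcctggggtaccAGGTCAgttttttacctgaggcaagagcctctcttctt
AGGTCA was in the windows of 2 members, Stra8 and Sohlh1, and in 16.3% of all windows. The E-box CANNTG, the kind of site that SOHLH factors bind, was in 5 (Sohlh1, Sohlh2, Dmrtb1, Kit and Gfra1) and in 72.3% of all windows. In the far core of Sohlh2 the letters of an E-box overlap those of the core. A match of letters is no evidence of binding, and a missing match is no evidence that binding is absent. In the study, only a minority of the changed genes bound by CREM held the full element, and some held none. Members with and without the core were found among the genes that rose, fell and were not called.

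Further genes of undifferentiated spermatogonia were taken from a list of 25, of which 24 were measured. Of these 7 fell, 3 rose and 14 were not called, with a median of −0.03. Over all genes 44.3% were called, 13.2% lower and 31.1% higher. The largest fall was in Pou5f1, the pluripotency factor OCT4 (−1.36 ± 0.13, SE), whose signal is uncertain because many retrocopies of the gene exist. Gfra2 fell by 0.85 on the log2 scale as above, and Egr3, an immediate early factor of the zinc finger class, was at −0.60 ± 0.10 (limma adjusted p = 3.1e-04). The remaining falls were in Eomes (−0.31 ± 0.07) and Utf1 (−0.25 ± 0.09) and in the transcription factor genes Bcl6b (−0.30 ± 0.07) and Lhx1 (−0.28 ± 0.07). Etv5, also a transcription factor gene, was at −0.17 ± 0.08 and Egr2, a relative of Egr3, at 0.03 ± 0.09, neither of them called (limma adjusted p = 0.106 and 0.818). The rises were in Itga6 (0.37 ± 0.08), an integrin of stem and other basal cells, Cdh1 (0.36 ± 0.12), which encodes E-cadherin, and Foxo1 (0.26 ± 0.07). Nanos2, an RNA-binding protein of the most primitive cells, was at 0.01 ± 0.09. The WT means of Nanos2 and Egr2, 5.73 and 6.34, lay below the array medians, and their signal over background is unknown.

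Of 14 further genes of differentiating spermatogonia and of meiotic entry 6 rose, 1 fell and 7 were not called, with a median of 0.20. Rises also outnumbered falls over all genes (31.1% and 13.2%, with 44.3% called), so these counts are near the background. The rises lay between 0.28 and 0.37, with Ccnd2, a cyclin turned on as spermatogonia differentiate (0.37 ± 0.09, SE), Meioc, which prolongs meiotic prophase (0.34 ± 0.08), and the germ cell kinase gene Stk31 (0.31 ± 0.07) the largest. The fall was in the meiotic cohesin gene Rec8 (−0.57 ± 0.06). Among 9 genes of germ cells at large 5 rose and none fell (median 0.23), with Ddx4 at 0.40 ± 0.07, Tex11 at 0.31 ± 0.11 and Tex14 at 0.28 ± 0.07, and among 15 spermatocyte genes 10 rose and none fell (median 0.24), Meiob by 0.82 ± 0.13, Msh4 by 0.61 ± 0.12 and Spo11 by 0.38 ± 0.09. The rises of Zbtb16 and Id4 lay within their own SE of the medians of these lists.

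**Figure D3:**
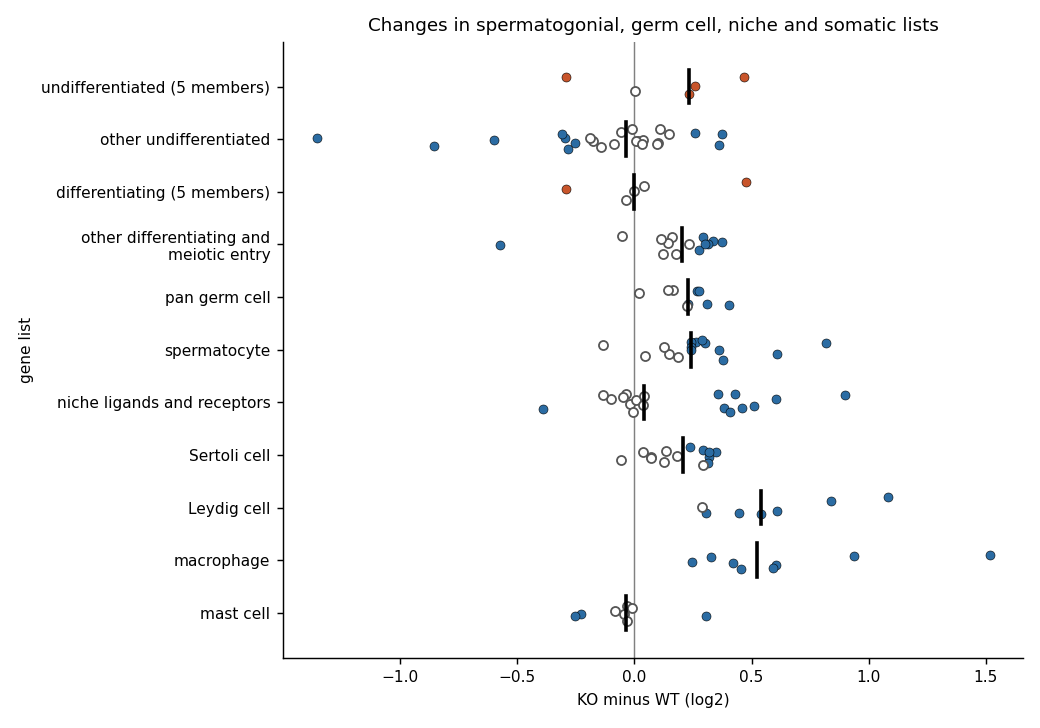
KO minus WT log2 change (horizontal axis) of every measured gene in 11 lists (vertical axis), with filled points for called genes, open points for genes not called and a bar for the median of each list; vertical scatter within a list has no meaning. The medians are 0.23 and −0.004 for the undifferentiated and the differentiating members, −0.03 and 0.20 for the further genes of both stages, and 0.54 and 0.52 for Leydig cells and macrophages.

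Of 18 ligands and receptors of the niche, the somatic surroundings of spermatogonia, 8 rose, 1 fell and 9 were not called. This is near the shares of all genes (31.1% higher, 13.2% lower), and the list median of 0.04 lay below the median of 0.07 over all genes. Igf1, insulin-like growth factor 1, rose by 0.90 ± 0.10 (SE), the macrophage receptor gene Csf1r by 0.61 ± 0.12 and the cytokine receptor gene Lifr by 0.51 ± 0.07, while Nrg3 fell by 0.39 on the log2 scale. All 8 macrophage genes rose as well, with list means of 7.00 to 7.07 in WT and 7.46 to 8.03 in KO, and Csf1r belongs to both lists.

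Of 16 measured genes of the retinoic acid signal 5 fell, 2 rose and 9 were not called, with a median of 0.08. The number called is near the 44.3% of all genes, but falls outnumbered rises here. Over all genes 13.2% were lower and 31.1% higher. Rdh10, which makes retinal for retinoic acid synthesis, was at −1.75 ± 0.07 (SE), the receptor gene Rxra at −1.23 ± 0.08 and the receptor gene Rarb at −0.69 ± 0.12, all of them lower. The other falls were in Cyp26a1 (−0.60 ± 0.07) and Rxrg (−0.35 ± 0.09). Aldh1a1 and Aldh1a2, the synthesising dehydrogenases, rose by 0.60 ± 0.14 and 0.44 ± 0.09. Rarg, the receptor of spermatogonia that respond to retinoic acid, was at 0.09 ± 0.07 and not called (limma adjusted p = 0.287), and neither was Stra8, a target of the signal.

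Among relatives and partners of the members, 3 of 14 rose and 1 fell (median 0.07), beside 31.1% higher and 13.2% lower over all genes. Tcf4, a partner of many helix-loop-helix factors, rose by 1.08 ± 0.06 (SE), Zbtb32, a relative of Zbtb16, by 0.42 ± 0.06 and Id3 by 0.37 ± 0.10, while Sall3, a relative of Sall4, was at −0.31 ± 0.10. Lin28b, the paralogue of Lin28a, was at 0.15 ± 0.11 and not called (limma adjusted p = 0.308).

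The number of Sertoli cells is fixed in the adult, and each cell supports a set number of germ cells. Of 14 Sertoli cell genes 6 rose and none fell, with a median of 0.21 and list means of 8.69 to 8.84 in WT and 8.81 to 9.05 in KO. For comparison, 31.1% of all genes were higher and 13.2% lower. The largest rises were in the hormone receptor gene Fshr (0.35 ± 0.07, SE), Clu (0.32 ± 0.08) and Tsx (0.32 ± 0.10). The defining factors Sox9 and Wt1 were at 0.13 ± 0.08 and 0.13 ± 0.06 and not called. When every array was centred on this list, the median change of all features moved by −0.19, and 23.9% of the called features were higher, against 69.2% with the deposited scaling. Lin28a and Kit were still higher relative to the Sertoli list, by 0.27 (limma adjusted p = 0.0206) and 0.28 (0.0306). Gfra1 and Sohlh2 were lower by more than before, at −0.48 each (limma adjusted p = 6.7e-04 and 5.1e-04). Zbtb16 and Id4 lost their calls, at 0.07 and 0.04 (limma adjusted p = 0.526 and 0.705), and Sall4, Stra8, Sohlh1 and Dmrtb1, at −0.19, −0.20, −0.23 and −0.15, remained uncalled. With arrays centred on 7 housekeeping genes, of which Hprt (0.35 ± 0.06) and Sdha (0.32 ± 0.06) had risen and Actb (−0.24 ± 0.07) and Ywhaz (−0.18 ± 0.06) had fallen, the same 6 members were called. The calls of Zbtb16 and Id4 therefore depended on the scaling, and those of the other 4 called members held under each scaling run.

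**Figure D4:**
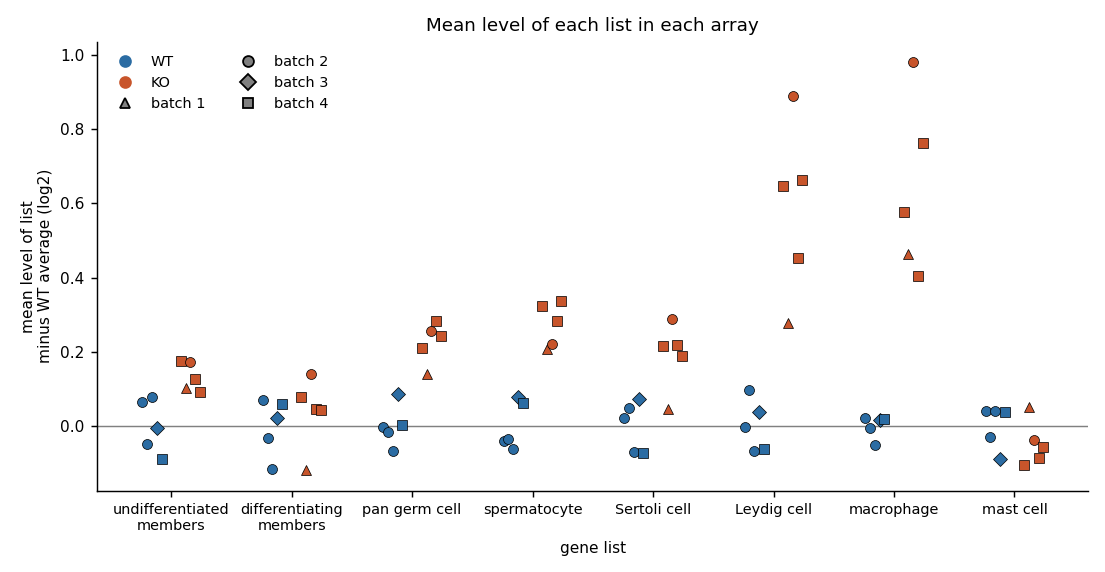
Mean level of each gene list minus its WT average (vertical axis, log2) in each of the 10 arrays, with WT in blue, KO in orange and a symbol for each batch. Leydig cell, macrophage, pan germ cell, spermatocyte and Sertoli cell lists lie above the WT average in all KO arrays, as do the undifferentiated members. The undifferentiated members do so by less than the Leydig cell and macrophage lists. The differentiating members overlap between the groups.

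The other somatic lists moved unevenly, beside 31.1% of all genes called higher and 13.2% called lower. Of 7 Leydig cell genes the largest rises were in Hsd17b3 (1.08 ± 0.14, SE), Cyp11a1 (0.84 ± 0.16) and Cyp17a1 (0.61 ± 0.11), enzymes of steroid synthesis. Peritubular myoid cells had 1 gene higher and 1 lower of 6, with Actg2 at −0.63 ± 0.07 and Myh11 at 0.21 ± 0.06. Endothelial cells had 2 higher and 1 lower of 7, led by the angiopoietin receptor gene Tek (2.05 ± 0.11) and Cdh5 (1.15 ± 0.07), with Flt1 at −0.18 ± 0.06, and T lymphocytes had 2 higher (Cd2, 0.61 ± 0.14, and Il7r, 0.21 ± 0.07) and 1 lower (Cd3d, −0.56 ± 0.10) of 5. Of the macrophage genes Adgre1 rose most (1.52 ± 0.07), followed by Lyz2 (0.93 ± 0.20), and of the mast cell genes Fcer1a was at 0.30 ± 0.06, Tpsab1 at −0.25 ± 0.09 and Cpa3 at −0.23 ± 0.08. The part of these cells in the changes of the spermatogonial genes was not tested.

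By array the members did not single out any mouse. Over the 10 members KO replicates 1 and 5 were the highest KO array 3 times each, KO replicates 2 and 5 were the lowest 3 times each, and KO replicate 3, with KO replicate 2 the array with most spermatid signal, was never the lowest. The mean of the 5 undifferentiated genes was 7.89 to 8.06 in WT and 8.07 to 8.15 in KO, and the mean of the 5 differentiating genes was 7.55 to 7.74 in WT and 7.55 to 7.81 in KO.

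Over all 10 arrays the genes with the pattern nearest to Kit were Garre1, Tshz2 and Plau (Pearson's r of 0.979, 0.971 and 0.970), and those nearest to Lin28a were Naa35, Hspa9 and Awat1 (0.984, 0.984 and 0.983). For Id4 they were Rfx5, Rictor and Snord87 (0.976, 0.975 and 0.975), for Zbtb16 Slc2a9, Eif2a and Slc49a4 (0.958, 0.949 and 0.945), for Gfra1 Evl, Dlgap3 and Nupl2 (0.960, 0.944 and 0.936) and for Sohlh2 Acot7, Rasgrp4 and Sel1l3 (0.946, 0.946 and 0.941). These values describe likeness over arrays of both genotypes, among 19661 genes, and a change between the genotypes enters each of them.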

How the data were processed

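RNA of whole testis from 5 WT and 5 KO mice was measured on Affymetrix Gene Chip Mouse Gene 1.0 ST arrays. Normalisation was done by the authors with RMA (XPS package), on core transcripts and control probes, with the background from antigenomic probes and probes grouped per transcript. The deposited values are log2 expression levels, not centred per gene, between 2.74 and 14.6, without a detection call. The package version and the genome build of the probe annotation are not given in the sources used here. Averaging along a transcript means that no isoform can be told apart, and the number of arrays limits the precision.

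The table has 35557 rows, of which 9868 hold no value, and the remaining 25689 features were used without a filter. Names came from the platform's annotation in GEO, with symbols updated by gene identifier through RefSeq (GRCm38.p6). There were 20777 features with 1 symbol (20696 of them matched to RefSeq), 232 with several and 4680 with none. Where a gene had several features, the brightest on average was taken. Groups came from the genotype label. Replicates are separate mice, numbered in the order of deposition.

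The genotypes were compared by a two-sided limma fit (limma 3.58.1, R 4.3.3; functions lmFit and eBayes) without covariates, with Benjamini-Hochberg adjustment across features and a threshold of 0.05. The fit was tested on simulated data. The members, the 16 other gene lists (187 of all 200 genes listed were measured) and the tests were chosen with earlier results of these data known. Named were the members, Crem, Kitl, Gdnf and Ret, and in each list the 3 called genes with the largest change. Any other gene was picked with its value in view. Lists are described by counts and medians, without a set test. The alternatives were other scalings, batch as a block or alone, array weights, trended and robust eBayes, dropping the dimmest 25% of features, a minimum change of 1, averaging features of a gene and leaving out arrays. Batch 2 has 1 KO array and batch 4 has 1 WT array, and such a lone array is assumed to vary like those of the other genotype.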

Additional observations from a re-analysis of the deposited data

How the results depend on the processing

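No paired analysis was possible because the labels give no replicate numbers shared between the genotypes. The 6 called members kept their direction under every alternative. The undifferentiated members numbered 4 called over all arrays, 2 with the Sertoli cell centring, 3 with batch as a fixed block, 0 in batch 2, 2 in batch 4, 3 without KO replicates 2 and 3 and 0 at a minimum change of 1. The differentiating members numbered 2 called, and 1 with batch as a fixed block, 0 in batch 2, 0 in batch 4, 1 without KO replicates 2 and 3, 0 at a minimum change of 1 and 1 to 2 when an array was left out. The median of the undifferentiated members moved from 0.23 to 0.039 with the Sertoli cell centring. The median of the differentiating members moved from −0.004 to −0.20 with that centring, 0.20 in batch 2 and −0.16 in batch 4.

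Members that were not called changed sign, without passing the test in any of these settings. Sall4 was at −0.017 with the housekeeping centring, −0.19 with the Sertoli cell centring, −0.038 without KO replicates 2 and 3 and −0.034 to 0.065 when an array was left out. Stra8 was at 0.033 after quantile normalisation once more, 0.016 with median centring, 0.15 with batch as a fixed block, 0.30 in batch 2, 0.015 with array weights, 0.0047 without KO replicates 2 and 3 and −0.076 to 0.075 when an array was left out. Sohlh1 was at 0.11 in batch 2 and −0.070 to 0.012 when an array was left out. Dmrtb1 was at −0.15 with the Sertoli cell centring, −0.036 with batch as a fixed block, −0.28 in batch 4 and −0.037 to 0.13 when an array was left out. The cause was not tested. Batch as a fixed block rests on batches 2 and 4, since batches 1 and 3 hold 1 array each. Of the 20 groups of 5 arrays tested for an outlying array, 0 held one. The changes of Zbtb16, Id4 and the members not called are within reach of the scaling, and signal over background is unknown without detection calls.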
